A study of Rattus norvegicus with 8 samples.

Results

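Stathmins, neuronal beta tubulins, the tubulin polymerization promoting proteins (TPPP) and tau are proteins that build microtubules or bind to them, and their transcripts were followed in newborn rat retinal cells that received a Klf4 plasmid or a control plasmid. The genes described are Stmn1, Stmn2, Stmn3, Stmn4, Tubb2a, Tubb2b, Tubb3, Tppp, Tppp3 and Mapt. They were chosen as microtubule genes because several of them had higher signals with Klf4 in these same arrays, so their values are given as a description, with no test. A probe was counted as theirs where its RefSeq accession, without version, belongs to one of these genes. This gave 13 probes for 9 of the 10 genes, among 45598 gene probes for 16581 symbols; no probe matched Stmn3, which was not analysed here.

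The series holds 4 arrays of GFP-positive cells electroporated with a plasmid encoding Klf4, a zinc-finger transcription factor, and 4 of GFP-positive cells electroporated with the control plasmid, numbered 2 to 5 in both groups. Retinas of Lister hooded rats were taken on postnatal day 0, received 25 V pulses of 50 ms in vitro, were kept as explants for 39 hours and were then dissociated for sorting. No source used here gives the plasmid's promoter or the number of animals behind an array. Nothing says that the 4 samples of a group are separate animals or cultures, so a p-value speaks of sample-to-sample spread that may be technical. The sorted cells are a bulk sample, in which more cells of a type and more RNA per cell cannot be told apart.

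The 8 arrays lay on 1 slide. Between 71.93% and 86.45% of gene spots were well above background and 0 were saturated on any array. Both arrays numbered 5 were scanned in a second scan, both arrays numbered 4 were outside the quality limits of the scanner software, and the Klf4 arrays held slide columns 2 and 4 against columns 1 and 3 for the control arrays, so column and group cannot be told apart. The progenitor marker Sox2 was present, well above background, on all 8 arrays and differed by 0.11 on the log2 scale (Klf4 minus control). The Klf4 probe itself read -3.00 ± 0.86 on the Klf4 arrays and -3.27 ± 0.62 on the control arrays (normalised log2 signal, SD, n = 4 each), and since its place relative to the insert is unknown here, it does not check the labels. Of 29988 genes and features tested, 961 were higher with Klf4 and 140 lower (3.2% and 0.467%) at a limma adjusted p under 0.05, and with no scaling between arrays 526 were higher and 2 lower.

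Microtubules are polymers of alpha and beta tubulin that grow and shrink at their ends, and growing axons depend on them. Stathmins bind tubulin dimers and favour disassembly: Stmn1 is a soluble protein common in dividing cells, while Stmn2, Stmn3 and Stmn4 are anchored to membranes and are typical of neurons. Tubb3 encodes class III beta tubulin, a standard marker of new neurons, which in the retina labels ganglion cells, the first neurons to form. Tubb2a and Tubb2b encode the closely related class II beta tubulins of the nervous system. Tppp and Tppp3 bundle and stabilise microtubules, Tppp being best known in oligodendrocytes, and Mapt encodes tau, the microtubule-associated protein of axons.

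RefSeq promoter entries (assembly GRCr8) were matched for 6 of the 10 genes: Stmn1, Stmn3, Tubb2a, Tubb2b, Tubb3 and Tppp. Of these, 4 are shown as the 250 bases before the transcript start, 5′ to 3′, to set 3 genes with a higher signal on Klf4 arrays (for Tppp on 1 of its 2 probes) beside Stmn1, whose groups overlapped. Capitals mark CACCC on the printed strand or its complement GGGTG, the core letters of sites that KLF factors are known to bind.
Tubb3, chr19:68365437-68365686, plus strand: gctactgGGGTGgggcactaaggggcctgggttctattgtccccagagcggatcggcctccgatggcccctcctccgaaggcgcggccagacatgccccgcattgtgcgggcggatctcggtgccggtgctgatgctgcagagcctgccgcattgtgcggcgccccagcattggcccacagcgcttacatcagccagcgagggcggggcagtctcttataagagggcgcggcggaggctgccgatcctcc
Tubb2b, chr17:30952836-30953085, plus strand: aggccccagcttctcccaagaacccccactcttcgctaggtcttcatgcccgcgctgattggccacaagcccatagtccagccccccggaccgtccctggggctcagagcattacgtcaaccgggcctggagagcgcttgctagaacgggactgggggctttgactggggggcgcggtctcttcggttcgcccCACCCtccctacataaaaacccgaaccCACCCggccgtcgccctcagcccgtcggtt
Tppp, chr1:31109704-31109953, minus strand: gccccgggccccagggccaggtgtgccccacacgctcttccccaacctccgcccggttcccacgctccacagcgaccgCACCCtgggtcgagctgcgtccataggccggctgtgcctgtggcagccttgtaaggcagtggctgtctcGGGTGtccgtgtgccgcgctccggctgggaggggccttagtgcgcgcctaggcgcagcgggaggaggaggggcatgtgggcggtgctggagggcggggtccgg
Stmn1, chr5:151964929-151965178, plus strand: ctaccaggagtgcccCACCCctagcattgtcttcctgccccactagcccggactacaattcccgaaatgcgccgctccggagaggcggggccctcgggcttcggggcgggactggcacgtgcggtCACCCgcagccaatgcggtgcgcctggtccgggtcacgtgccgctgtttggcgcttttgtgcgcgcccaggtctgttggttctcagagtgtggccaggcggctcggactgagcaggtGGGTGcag
CACCC occurred, on either strand, 1 time before Tubb3, 2 times before Tubb2b, 2 times before Tppp and 3 times before Stmn1. It was present in 49.2% of all 33469 promoters of this length, and 3 or more times, as before Stmn1, in 6.55%. The GC box GGGCGG, also read on both strands and overlapping none of the capitals here, occurred 2 times before Tubb3, 0 times before Tubb2b, 3 times before Tppp and 1 time before Stmn1, against a presence in 30.5% of all promoters. These matches are a description of the letters in the window.

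On their representing probes, 8 of the 9 measured genes were higher with Klf4 by 0.7476 (Mapt) to 6.17 (Tppp3), and 1, Stmn1, lay near 0. The dimmer Tppp probe was at -0.02. Of all 29988 tested features, 11708 had a difference above 0. The differences, Klf4 minus control, ranged from 0.04 for Stmn1 to 6.17 for Tppp3 with a median of 1.24 on the log2 scale, against a median of -0.07 over all tested features. In 6 of the 9 genes (Stmn2, Tubb2a, Tubb2b, Tubb3, Tppp and Tppp3) every Klf4 array lay above every control array, as was the case for 5.74% of all tested features; in 0 of the 9 did every Klf4 array lie below (4.48% of all features). Since the genes were picked from this comparison, these counts are given for orientation alone. All 13 probes passed the filter on dim signals, and each was well above background on all 8 arrays.

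**Figure D1:**
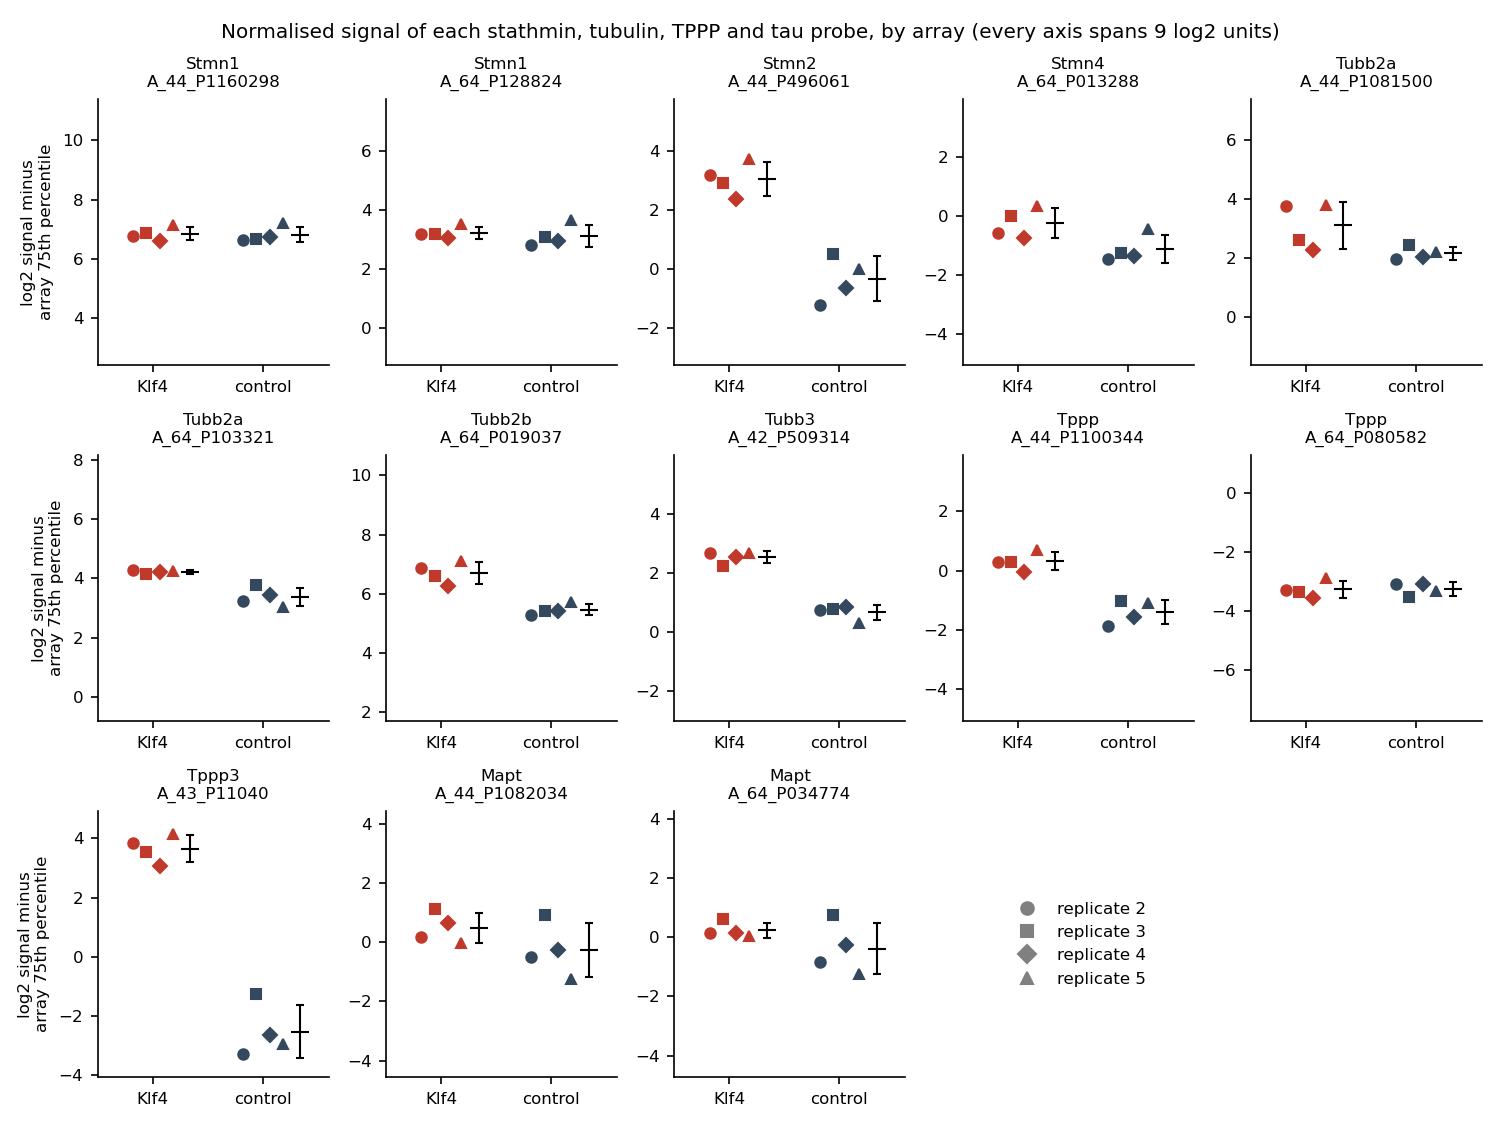
Normalised log2 signal of each of the 13 probes (vertical axis, log2 signal minus the array's 75th percentile) on the 4 Klf4 and the 4 control arrays. Symbols stand for replicate numbers and bars for mean and SD; the groups are far apart for Tppp3 (3.64 against -2.52) and Stmn2 (3.05 against -0.33) and lie at one height for Stmn1.

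Among the stathmins, the neuronal Stmn2 had a large difference and the soluble Stmn1 one near 0. Stmn2, also known as SCG10, a membrane-anchored stathmin of growth cones, read 3.18, 2.92, 2.37 and 3.72 on Klf4 arrays 2 to 5, and -1.23, 0.51, -0.62 and 0.02 on control arrays 2 to 5 (normalised log2 signal). The lowest Klf4 array lay well above the highest control array, which was replicate 3. Stmn2 averaged 3.05 ± 0.56 with Klf4 and -0.33 ± 0.76 in the controls (SD, n = 4 each), a log2 difference of 3.38 (SE 0.47), or 10.4-fold. Of all 29988 tested features, 155 had a difference at least as large.

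Stmn1 read 6.78, 6.88, 6.60 and 7.15 on the Klf4 arrays and 6.63, 6.68, 6.74 and 7.20 on the control arrays. The groups overlapped fully, and replicate 5 was the highest in each. The log2 difference was 0.04 (SE 0.17) and turned to -0.0603 without Klf4 replicate 5, to -0.0224 without control replicate 2, to -0.00498 without control replicate 3, and to -0.0516 with the percentile taken over gene spots. The second Stmn1 probe gave 0.10 (SE 0.21), from 3.23 ± 0.20 with Klf4 and 3.13 ± 0.37 in the controls (SD, n = 4 each). Both probes thus placed Stmn1 within the spread between replicates.

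Stmn4, the membrane-anchored stathmin also called RB3, lay between these extremes. It read -0.56, -0.005, -0.76 and 0.35 with Klf4 and -1.45, -1.24, -1.35 and -0.44 in the controls. Control replicate 5 lay above Klf4 replicates 2 and 4, so the groups overlapped. The log2 difference was 0.88 (SE 0.34), 1.84-fold.

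All 3 neuronal beta tubulin genes had higher signals with Klf4. Tubb3 read 2.68, 2.23, 2.55 and 2.67 on the Klf4 arrays and 0.75, 0.78, 0.84 and 0.29 on the control arrays. The 4 Klf4 values lay close together, and the closest pair across the groups was still over 1 log2 unit apart. Tubb3 averaged 2.53 ± 0.21 with Klf4 and 0.67 ± 0.25 in the controls (SD, n = 4 each), a difference of 1.86 (SE 0.16), or 3.64-fold. At least as large a difference was seen in 502 of the 29988 features.

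Tubb2b, the class II isotype of migrating and growing neurons, read 6.87, 6.60, 6.26 and 7.10 with Klf4 and 5.28, 5.41, 5.43 and 5.73 in the controls. The groups did not overlap, with the lowest Klf4 array (replicate 4) above the highest control (replicate 5). The difference was 1.24 (SE 0.20), 2.36-fold. Tubb2a had 2 probes. The brighter one read 4.30, 4.14, 4.20 and 4.26 with Klf4 and 3.24, 3.79, 3.42 and 3.04 in the controls, without overlap, and differed by 0.85 (SE 0.16), 1.80-fold. The other read 3.75, 2.60, 2.27 and 3.78 with Klf4 and 1.97, 2.44, 2.03 and 2.19 in the controls, and differed by 0.94 (SE 0.40). On that probe Klf4 replicate 4 lay below control replicate 3, and the Klf4 arrays split into a high pair, replicates 2 and 5, and a low pair. Tubb2a and Tubb2b are near-identical neighbouring copies on the RefSeq assembly, and how far transcripts of one bind the probes of the other was not tested.

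Tppp3 showed the widest separation of the 13 probes. It read 3.84, 3.53, 3.07 and 4.14 on the Klf4 arrays and -3.27, -1.25, -2.64 and -2.93 on the control arrays. Control replicate 3 was the highest control by over 1 log2 unit, and it still lay far below each Klf4 array. Tppp3 averaged 3.64 ± 0.46 with Klf4 and -2.52 ± 0.89 in the controls (SD, n = 4 each), a difference of 6.17 (SE 0.50), or 71.9-fold, and 15 of the 29988 features, Tppp3 among them, had at least this difference. Before any scaling, its log2 processed signals were 14.45, 13.97, 13.59 and 13.76 with Klf4 and 7.27, 9.50, 7.63 and 6.59 in the controls, so the separation is in the deposited intensities themselves.

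Tppp gave unlike answers on its 2 probes. The brighter probe, which carries the accession of a predicted transcript, read 0.31, 0.28, -0.04 and 0.70 with Klf4 and -1.88, -1.04, -1.58 and -1.10 in the controls, a difference of 1.71 (SE 0.25), or 3.27-fold, without overlap. The dimmer probe, which carries the curated transcript, read -3.28, -3.34, -3.57 and -2.89 with Klf4 and -3.09, -3.54, -3.08 and -3.32 in the controls, a difference of -0.02 (SE 0.18). The 2 probes' differences were 1.73 apart, and their mean was 0.85. Which transcripts each probe reads was not tested, and the difference is given for the one probe.

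Mapt, the gene of tau, had 2 probes that behaved alike. The brighter one read 0.16, 1.12, 0.65 and -0.02 with Klf4 and -0.49, 0.93, -0.26 and -1.26 in the controls. Control replicate 3 lay above 3 of the 4 Klf4 arrays, so the groups overlapped. The difference was 0.75 (SE 0.52) on this probe and 0.62 (SE 0.45) on the other. Without control replicate 3 the first became 1.15, and without control replicate 5 it became 0.42, so single arrays decide its size.

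Some arrays recurred at the ends of their groups across these genes. Klf4 replicate 5 was the highest Klf4 array on 9 of the 13 probes and Klf4 replicate 4 the lowest on 9. Control replicate 3 was the highest control on 7 of the 13 probes, among them Stmn2, Tppp3 and both Mapt probes, and control replicate 2 the lowest on 8. Klf4 replicate 4 was also the array with the smallest share of spots well above background. The part of array quality in these values was not tested.

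The differences were also read within each scan. In the first scan, with 3 arrays a group, they were 5.87 for Tppp3, 3.27 for Stmn2, 1.69 for Tubb3, 1.68 for the brighter Tppp probe, 1.20 for Tubb2b, 0.73 for the brighter Tubb2a probe, 0.91 for Stmn4, 0.58 for the brighter Mapt probe and 0.07 for the brighter Stmn1 probe. In the second scan, with 1 array a group and so no replicates, they were 7.06, 3.70, 2.38, 1.80, 1.37, 1.22, 0.79, 1.24 and -0.05 in the same order. Of these probes, Stmn4 and Stmn1 were the ones with a smaller difference in the second scan. The dimmer Tppp probe was at -0.17 in the first scan and at 0.43 in the second.

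**Figure D2:**
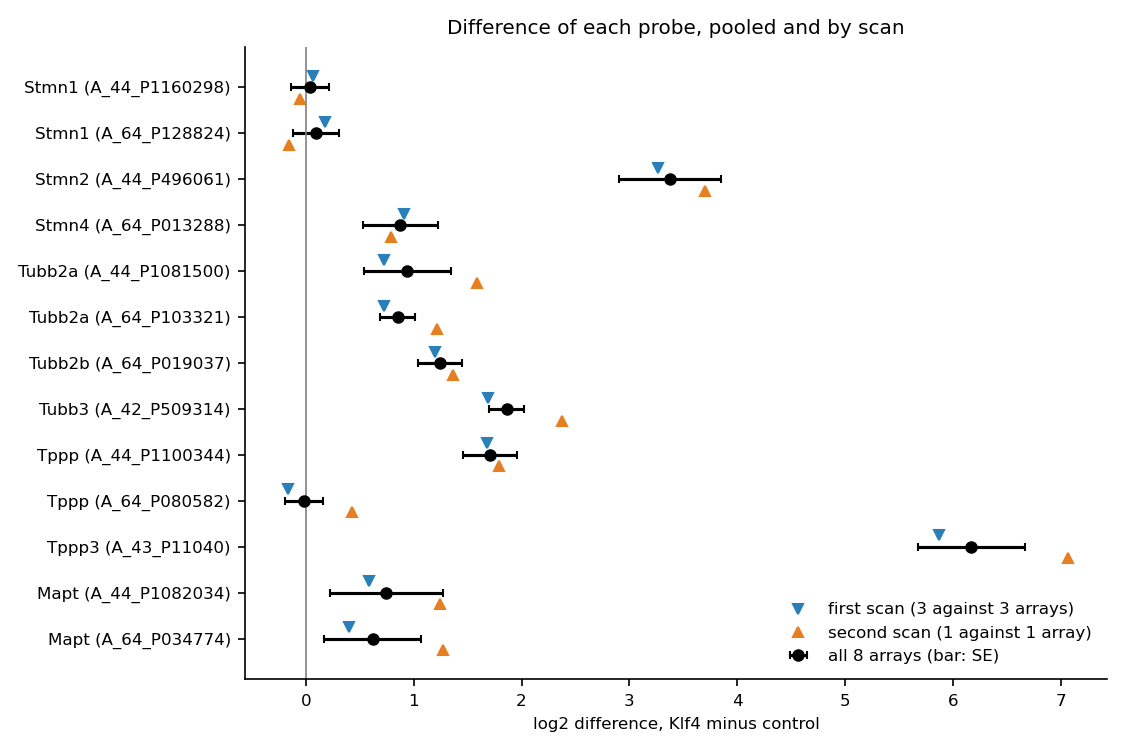
Log2 difference, Klf4 minus control, of each probe over all 8 arrays (black, bar: SE) and within the first scan (blue) and the second scan (orange). Tppp3 (6.17) and Stmn2 (3.38) stand to the right, and Stmn1 and the dimmer Tppp probe lie at 0.

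Few other genes of the microtubule machinery passed the test. Of 104 other genes listed by role, 80 had a probe, and 79 passed the filter on dim signals (Tubal3 did not). Of these 79 genes 4 rose, 0 fell and 75 did not pass (limma, adjusted over all features), a share of 5.06% higher against 3.2% of all features. Their median difference was -0.04, against -0.07 over all features, and 15 had an unadjusted p under 0.05. The 4 that rose were in the list of lattice-binding proteins and doublecortins (16 genes), where Mtus2, which is also known to bind an end-binding protein, was placed by the list; no difference between roles was tested. Alpha tubulins (7 genes), other beta tubulins (4), gamma, delta and epsilon tubulins (2), Tppp2 (1), end-binding proteins (11), severing enzymes (6), tubulin-modifying enzymes (9), tubulin-folding cofactors (6) and motors (17) had 0 in either direction. Without Klf4 replicate 4 the counts were 9 higher and 1 lower, and without any one of Klf4 replicates 2, 3 and 5 or control replicates 2, 3 and 4 they were 2 higher and 0 lower.

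Mtus2, a microtubule-associated scaffold gene whose human protein is known to bind the plus-end protein EB1, was the largest of these rises. It averaged 0.73 ± 0.53 on the Klf4 arrays and -3.59 ± 0.47 on the control arrays (SD, n = 4 each), a log2 difference of 4.32 (SE 0.31, limma adjusted p = 0.000216), and 3.85 on its other probe. It kept its call in all 21 processing alternatives. Its relative Mtus1 rose by 0.84 (SE 0.13, limma adjusted p = 0.00737), and its other kept probes gave 0.34 and 0.66. The Mtus1 call was lost with no scaling between arrays (limma adjusted p = 1) and with the mean over probes (0.0562).

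Dclk1, a kinase with doublecortin domains that bind microtubules, rose by 1.66 (SE 0.34, limma adjusted p = 0.0339), and its other probe gave 1.36. That call was lost in 12 of 21 alternatives, among them leaving out any single array except Klf4 replicate 4 (adjusted p 0.0608 to 0.116). Map4, the microtubule-associated protein of most cell types, rose by 0.56 (SE 0.12, limma adjusted p = 0.0375), and its other probe gave 0.21. It lost its call in 13 of 21, among them leaving out Klf4 replicate 2, 3 or 5 or control replicate 2, 3 or 4 (0.0864 to 0.158).

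The other named genes of the machinery did not pass. Tubb6, the beta tubulin of many non-neuronal cells, was at 1.41 (limma adjusted p = 0.107) and passed in 4 of 21 alternatives, among them the scan as a block (0.0459) and leaving out Klf4 replicate 4 (0.0115). The widely expressed Tubb5 was at 0.51 (adjusted p = 0.411) and passed under array weights (0.0158) and with scan as a block (0.0421). Tubb4b and Tuba1a did not pass, with Tubb4b at 0.30 (limma adjusted p = 0.660) and Tuba1a, a neuronal alpha tubulin, at 0.26 (0.551). Tppp2, the third gene of the TPPP family, was at -0.38 (0.528). Among neuronal microtubule-associated proteins, Map1b was at 0.48 (0.232, and 0.0414 with array weights), the dendritic Map2 at -0.58 (0.280) and Dcx, of migrating neurons, at 0.03 (0.996). The spread of Dcx was wide, at -1.44 ± 1.35 with Klf4 and -1.48 ± 2.17 in the controls (SD, n = 4 each).

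**Figure D3:**
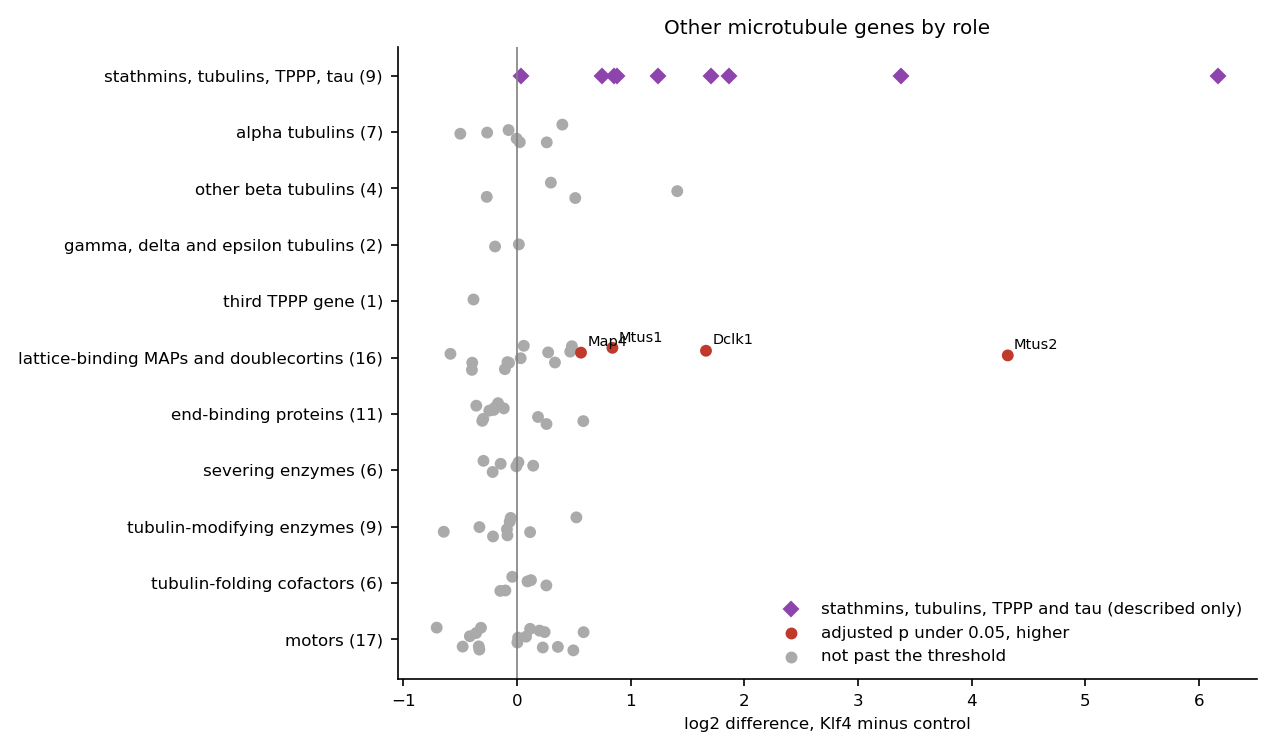
Log2 difference, Klf4 minus control, of the 79 other tested microtubule genes by role, with the 9 stathmin, tubulin, TPPP and tau genes in the top row as a description. Red points rose past the adjusted threshold (Map4, Mtus1, Dclk1 and Mtus2), and grey points did not pass.

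Some markers of ganglion cells, which are rich in Stmn2 and Tubb3, rose with Klf4 and others did not pass. Of 20 listed markers, none of them a gene described above, 19 had a probe, 6 of these were too dim (Pou4f3, Sncg, Thy1, Nefl, Nrn1 and Chrna6), and of the 13 tested 5 rose, 0 fell and 8 did not pass; the 5 are 38.5%, against 3.2% of all features. The mean level of the 12 measured in both groups, without Prph, lay between -1.15 and -0.88 on the Klf4 arrays and between -1.95 and -1.32 on the control arrays. Atoh7 had the largest difference of these 12 genes, and whether the gap holds without it was not tested. The rises were Prph (4.13), which encodes the intermediate filament protein peripherin, the ganglion cell competence factor Atoh7 (2.76), the neurofilament gene Nefm (1.89), the adhesion molecule gene L1cam (1.16) and the growth cone gene Gap43 (1.09), with limma adjusted p from 0.000348 (Atoh7) to 0.0297 (Gap43). In the controls, Prph cleared background on 2 of 4 arrays, so it was kept through the Klf4 arrays, and the 38.5% counts it. Its difference was 2.04 under normexp. Atoh7, Nefm and Prph kept their calls in all 21 alternatives, while Gap43 and L1cam lost theirs in 10 each, with single arrays left out among them: control replicate 2, 3, 4 or 5 or Klf4 replicate 2 for both, and Klf4 replicate 3 or 5 for L1cam. Factors that define ganglion cells did not pass, with Pou4f2 at -0.25 (0.21 on its other probe) and Isl1 at 0.12, and no probe matched Pou4f1. The marker Rbpms, with 5 kept probes, also did not pass. It was at 0.94 on the representing probe and at 1.17 to 1.91 on the others. Of the 13 tested markers, 10 lay above 0 and 3 below. The part of ganglion cell number in the Stmn2 and Tubb3 values was not tested.

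TPPP proteins are also known from oligodendrocytes, multiciliated cells and, in mouse, tendon sheath cells, and markers of these gave the following values. Oligodendrocyte markers, beside Tppp, had 0 of 11 past the threshold in either direction (limma, 4 with an unadjusted p under 0.05). Those 4 were Mbp (1.07, and -0.62 on its other probe), Cnp (0.59) and Myrf (0.70), higher, and Olig2 (-0.64), lower. Sox10 was at 0.39 and Olig1 at 0.04, and Mag at -0.10 on its representing probe and at 2.78 on its other probe. The list's mean levels were -0.56 to -0.28 on the Klf4 arrays and -0.86 to -0.43 on the control arrays. Multiciliated cell markers, beside Tppp3, had 0 of 6 past the threshold (limma, 1 with an unadjusted p under 0.05: Rsph1, higher at 0.87). Of these 6 genes, 3 lay above 0 and 3 below. Foxj1 was at 0.01 on its representing probe and at 0.58 on its other kept probe. Mean levels of the list were -1.71 to -1.42 on the Klf4 arrays and -1.66 to -1.45 on the control arrays. Among tendon sheath and fibroblast markers 1 of 6 rose (16.7%, against 3.2% of all features), Col1a1 (1.36), a call lost with no scaling (limma adjusted p = 0.206). Of the 6 genes, 2 lay above 0 and 4 below (median -0.31), and 3 had an unadjusted p under 0.05 (limma). Those 3 were Col1a1, higher, and Col1a2 (-0.47) and Scx (-0.48), lower. Scx passed the threshold as lower with array weights (limma adjusted p = 0.0463). Tnmd, Dcn, Lum, Thbs4 and Postn were too dim. The mean levels of this list were -2.04 to -1.80 on the Klf4 arrays and -2.08 to -1.83 on the control arrays.

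Of the endothelial markers, 2 of 5 rose (40%, against 3.2% of all features), Tek (2.38) and Esam (at least 3.90-fold). Esam had 0 of 4 control arrays well above background, so it was kept through the Klf4 arrays, and the 40% counts it. Of the 4 genes measured in both groups, Tek was the one that rose. Cdh5 was at -0.01 and Kdr at 0.03, while Vwf was at 0.13 on its representing probe and at 1.80 on its other kept probe. Pecam1, Tie1 and Cldn5 were too dim. The mean level of the 4 measured in both groups, without Esam, was 1.78 to 2.06 on the Klf4 arrays and 1.14 to 1.37 on the control arrays. Tek kept its call in all 21 alternatives, while that of Esam was lost under normexp (limma adjusted p = 0.0878) and with the 6 arrays of the first scan (0.0835). The part of endothelial cells in the values of the microtubule genes was not tested. All 12 tested photoreceptor markers were below 0 (median -0.52), and 3 of them fell (25%, against 0.467% of all features), Rbp3 (-1.10), Crx (-0.84) and Rxrg (-0.69). Otx2, at -0.44, passed with array weights (limma adjusted p = 0.0101) and without Klf4 replicate 4 (0.0373). Of these calls, Rbp3 was lost in 5 alternatives (without control replicate 2, 3 or 4 among them), Crx in 11 (any control or Klf4 replicate 2 or 3) and Rxrg in 12 (any array except Klf4 replicate 4). The list's mean levels were 0.13 to 1.37 on the Klf4 arrays and 0.86 to 1.85 on the control arrays. Progenitor markers had 0 of 11 past the threshold (3 with an unadjusted p under 0.05 in limma). Among amacrine and horizontal cell markers 2 of 13 rose (15.4%, against 3.2% of all features), Tfap2c (0.74) and Ptf1a (0.68), with Tfap2a at -0.40 and Tfap2b at -0.63; leaving out control replicate 2 or 3 ended the call of Tfap2c, and leaving out any array except control replicate 5 ended that of Ptf1a. Of the pericyte markers 1 of 6 rose (16.7%), Cspg4 (1.62), a call lost with no scaling (limma adjusted p = 0.0759), and its difference was 0.911 under normexp. Pdgfrb was at -0.86 and passed as lower with array weights (0.0211). Of the microglial markers 1 of 8 rose (12.5%), C1qb (1.04), with Aif1 at 0.60 and Itgam at -0.34. C1qb lost its call without Klf4 replicate 2 or 3 or control replicate 2 or 4.

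**Figure D4:**
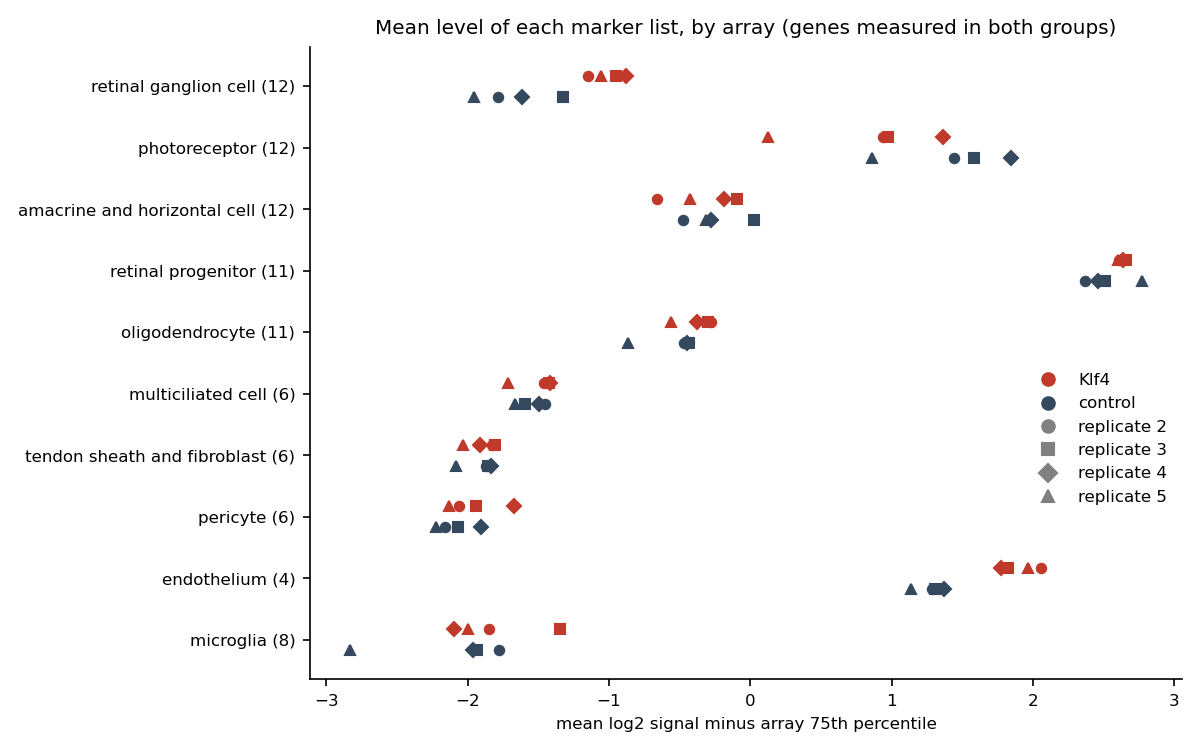
Mean normalised log2 signal of the genes of each marker list that were well above background on at least 3 of 4 arrays in both groups (horizontal axis) on the 4 Klf4 arrays (red) and the 4 control arrays (dark), with symbols for replicate numbers. The groups do not overlap for the ganglion cell list (-1.15 to -0.88 with Klf4, -1.95 to -1.32 in the controls) or the endothelial list. In the ganglion cell list Atoh7 (2.76), Nefm, L1cam and Gap43 rose, and the other genes shown did not pass. In the endothelial list Tek is the gene that rose.

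Genes with the most similar profile were sought for Stmn2, Tubb3 and Tppp3, by the root mean square distance between profiles over the 8 arrays, each centred on its mean, among 13495 other genes with a symbol. The nearest to Stmn2 were Ube2ql1 (distance 0.288 log2 units), the annexin gene Anxa5 (0.329) and the collagen gene Col6a2 (0.331), against a median distance of 1.83. The nearest to Tubb3 were the trehalase gene Treh (0.116), the tetraspanin gene Cd9 (0.132) and the chloride channel subunit gene Lrrc8e (0.144), against a median of 1.01. Among the nearest to Tppp3 were the receptor ligand gene Alkal2 (0.338) and the keratin gene Krt1 (0.482), against a median of 3.17. Among the 9 genes themselves the closest pair was Tubb2b with Tppp (0.310, on the brighter Tppp probe), and Stmn1 and Tppp3 were the farthest apart (3.13). These distances describe likeness over 8 arrays in 2 groups, so genes with a like difference are near by construction.

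**Figure D5:**
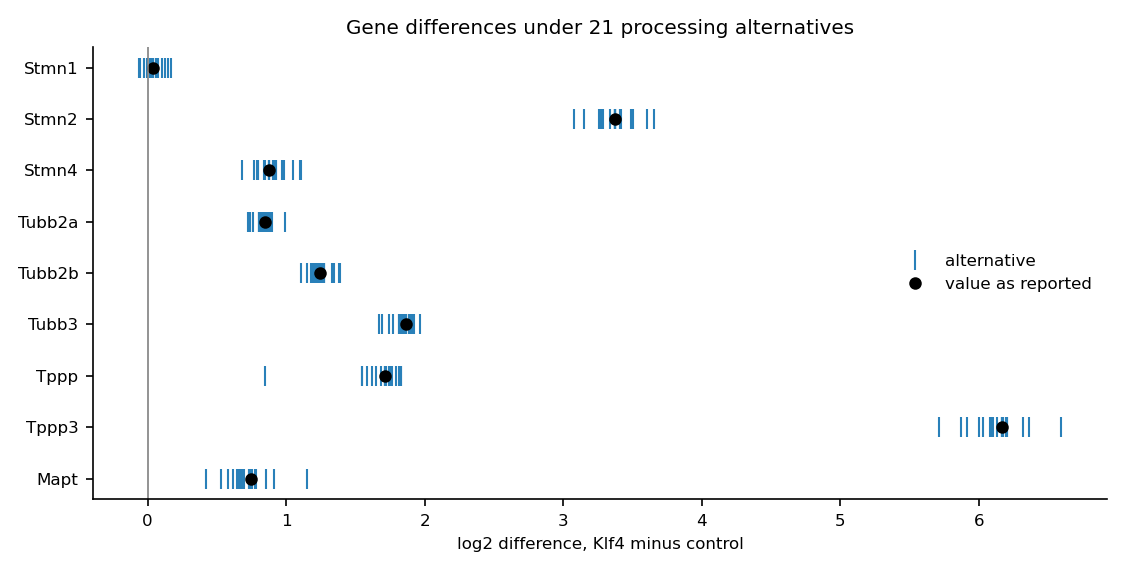
Log2 difference, Klf4 minus control, of the 9 genes as reported (black points) and under 21 processing alternatives (blue ticks). Stmn1 is the only one whose ticks lie on both sides of 0, and the tick of Tppp at 0.85 is the mean over its 2 probes.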

How the data were processed

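Cy3-labelled RNA of 4 Klf4 and 4 control samples was hybridised to 1-colour Agilent arrays. Per the file headers, the deposited intensity values were background-subtracted and detrended by Feature Extraction 10.7.3.1 and are not scaled between arrays. The flags (unit other: control, well above background, saturated, outlier) are deposited by the same software. The authors also deposited log2 values in 1 table with 45735 rows, made by steps that no source used here states. Each of its columns had a median of 7.54 and correlated best with its own array (r 0.994 to 1.00 across probes), so it is on a log2 scale with no centring of genes, in the direction of the signals.

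Here, without control and outlier spots, log2 signals were averaged per probe, and the array's 75th percentile over probes was then taken off. This normalised log2 signal is the scale of all levels. A probe was kept if at least 3 of 4 arrays in either group had it well above background, and the kept probe of highest mean stood for its gene. Accessions were matched, without versions, to the RefSeq table of GRCr8: 21109 probes had 1 symbol, 0 several and 24489 none, and the last were tested under their accession. The headers name build rn4, so no gene coordinates are given beside the promoter windows. Probe sequences were not analysed here.

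The test was limma 3.58.1 in R 4.3.3 (lmFit, then eBayes), two-sided, without covariates, with Benjamini-Hochberg adjustment over all 29988 features and a threshold of 0.05. The script was tested on simulated data. Precision is limited by the number of arrays. For the described genes the SE is that of a difference of 2 means, from the SD of each group. Where 0 arrays of a group had a gene well above background, its fold is a lower bound, from each array's lowest signal that was. Figures were drawn with matplotlib 3.10.9.

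The genes and lists were chosen with earlier results of these data known. Named genes were the 10 listed, the other microtubule genes past the threshold with 8 more (Tuba1a, Tubb5, Tubb4b, Tubb6, Tppp2, Map1b, Map2 and Dcx), markers past the threshold with the first 2 of each list where tested, and the 3 nearest profiles of Stmn2, Tubb3 and Tppp3. Of the genes this rule names, 2 are not reported here. Pou4f2, Isl1, Rbpms, Kdr, Vwf, Mbp, Cnp, Myrf, Olig2, Mag, Rsph1, Col1a2 and the genes named as too dim were added after their values were seen. Alternatives covered scaling, background correction, the filter, the probe rule, the authors' values, scan, replicate number, array weights and leaving out arrays. Normexp used median spot signals in place of the planned mean signals.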

Additional observations from a re-analysis of the deposited data

Results flagged for a closer look

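Of the 26 sets of 4 arrays examined (13 probes in both groups), 1 held an array far from the others of its group. Tubb3 read 0.29 on control replicate 5, against 0.75 to 0.84 on the other 3 controls, a gap of 0.833 of the group's range. Chance gives about 1 such array in 20 sets. Without control replicate 5 the Tubb3 difference, Klf4 minus control, was 1.74, against 1.86 with it.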

How the results depend on the processing

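Of the 9 genes, 8 lay above 0 in all 21 alternatives. Stmn1, at 0.04, ranged from -0.0603 to 0.168 with single arrays left out and was -0.0516 with the percentile over gene spots. Tppp moved to 0.85 with the mean over its probes. Tppp3 ranged from 5.71 (normexp) to 6.59, Stmn2 from 3.08 to 3.66 and Tubb3 from 1.67 to 1.96. The counts over all features, 961 higher and 140 lower, became 526 and 2 with no scaling (99.6% higher against 87.3%), 635 and 48 in the first scan alone, and 1792 and 1142 with array weights. The lower count was 93 with the array median, 70 with no filter on dim probes and 255 with the scan as a block. With single arrays left out they ranged from 604 (without Klf4 replicate 2) to 1221 (without Klf4 replicate 4) and from 32 (without control replicate 2) to 406 (without Klf4 replicate 4). The other microtubule genes past the threshold, 4 higher and 0 lower (15 with an unadjusted p under 0.05, limma), became 7 higher with quantile normalization and with the authors' values, 2 with no scaling, with no filter and in the first scan alone, 1 with the mean over probes, 9 with the scan as a block, and 13 higher and 1 lower with array weights. Without both arrays numbered 4, 1 was lower, and with single arrays left out 2 to 9 were higher and 0 to 1 lower, both highest without Klf4 replicate 4. The cause was not tested, beyond the fewer arrays of some alternatives. With the replicate block, 2 of these genes were higher, and 841 of all features higher and 101 lower. The block ended the calls of Dclk1 (adjusted p = 0.0612) and Map4 (0.0831). The labels state no pairing and the numbers were not taken as pairs: same-numbered arrays correlated in their deviations at 0.355, 0.243, 0.061 and 0.551 (numbers 2 to 5), 1 of 4 under 0.1, and Klf4 replicate 4 correlated best with control replicate 3. Same-numbered arrays share a scan, so number and scan overlap. The percentile over gene spots, normexp on median signals and the marker means over genes measured in both groups were chosen after seeing the data. All described probes were well above background on every array.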
